A study of Mus musculus with 12 samples.

Results

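The genes described here encode the laminin chains, the integrin receptor chains and 7 further proteins of the basement membrane or of cell adhesion (Nid1, Nid2, Hspg2, Agrn, Dag1, Fn1 and Npnt), followed in single-cell RNA sequencing of mouse fetal gonads. They were chosen by gene symbol: every gene named as a laminin alpha, beta or gamma chain or as an integrin alpha or beta chain, without the Itgb1bp and Itgbl genes, plus the 7 named proteins. The rule found 46 of the 32285 genes in the count tables. One of them, Itgb3bp, encodes a centromere protein and no integrin, and it was set apart, which left 45 genes (11 laminin chains, 18 integrin alpha chains, 9 integrin beta chains and the 7 others). The rule itself uses no measured value.

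A basement membrane is a sheet of extracellular protein on which epithelial cells rest. Laminins, trimers of an alpha, a beta and a gamma chain, polymerise at the cell surface and form its first layer. Nidogens link the laminin sheet to the collagen IV network, and the proteoglycans perlecan (Hspg2) and agrin (Agrn) bind to both. Cells hold on to the sheet through integrins, which are pairs of an alpha and a beta chain, and through dystroglycan (Dag1). In the fetal gonad a basement membrane underlies the coelomic epithelium and comes to enclose the testis cords around Sertoli and germ cells. WT1, the zinc finger protein whose gene was altered here, exists in a form without (-KTS) and a form with (+KTS) the amino acids lysine, threonine and serine between its last zinc fingers.

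Gonads came from XX and XY embryos at embryonic day 12 of 3 genotypes: wild type (WT), embryos that cannot make the -KTS form (-KTS KO) and embryos that cannot make the +KTS form (+KTS KO). Each of these 6 groups was measured in 2 libraries, 12 in all. The lines were kept on a mixed B6CBAF1/JRj background and carried the alleles in the germ line, so that no cell type was targeted. Several embryos were pooled in XX -KTS KO replicate 2 and in both XY -KTS KO libraries, so the spread between replicates may not be comparable between groups. The -KTS KO and the +KTS KO libraries of a sex were compared with the same 2 WT libraries.

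Library totals ran from 108111924 to 147968666 unique molecular identifiers (UMIs, each 1 captured RNA molecule), and 76976 cells were kept. Values are CPM, a gene's UMIs scaled to a common library total, from the UMIs summed over the gonadal somatic cells (4085 to 7699 cells a library) or the germ cells (144 to 1277 cells), scaled with TMM. Xist ran from 525 to 719 CPM in the XX libraries and reached 0.154 CPM in the XY libraries. Wt1 ran from 171 to 305 CPM in the somatic sums. A count of the 3' end cannot separate the KTS forms, so Wt1 does not check the genotype labels. Gata4, a factor of gonadal somatic cells, was at 68.6 CPM or more in every library, and the germ cell gene Pou5f1 ran from 455 to 700 CPM in the germ cell sums. In the somatic sums, the summed markers of other cell types ran from 37.7 to 58.1 CPM for 8 endothelial genes, from 9.88 to 61.2 CPM for 8 germ cell genes and from 0.325 to 1.43 CPM for 8 immune genes. Erythroid markers (7 genes) and markers of the mesonephric duct (8 genes) moved with genotype. The erythroid markers were at 401 and 806 CPM in XX WT and at 167 and 168 CPM without -KTS, at 330.4 and 545 CPM in XY WT and at 228 and 102 CPM without -KTS, and between 128 and 336 CPM in the +KTS KO. Their part in the results was not tested. The mesonephric duct markers were at 16.1 and 14.6 CPM in XX WT and at 23.6 and 27.0 CPM without -KTS, at 13 and 17.3 CPM in XY WT and at 33.5 and 29.5 CPM without -KTS, and between 9.03 and 10.6 CPM in the +KTS KO. Some libraries stood apart. Clusters of mesenchyme and muscle held 16.5% of the somatic cells of XY +KTS KO replicate 2, 2.35% to 9.29% in the other +KTS KO and WT libraries, and at most 0.387% in the -KTS KO libraries. Clusters of shallow cells held 23.7% of the somatic and 48.2% of the germ cells of XX -KTS KO replicate 2. The pre-granulosa-like clusters held 3087 cells of XY +KTS KO replicate 1 and 8 cells of replicate 2. Cluster 11, which held the 3087 cells, had Fos, Fosb and Junb among its leading genes. Somatic clusters left without a name held 168 and 3045 cells of these 2 libraries, and 3793 and 1860 cells of XX +KTS KO. The largest unnamed cluster was led by Cyp11a1 and Inha. Any pair of libraries shared 2 to 32 cell barcodes.

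The promoters of 2 genes that moved in both sexes of the -KTS KO are shown first, because WT1 is a DNA-binding protein: Agrn, which was higher, and Nid1, which was lower. Promoter windows (250 bases before to 50 bases after the start, RefSeq, GRCm38.p6) were found for 29 of the 45 genes, in 35 windows. They were searched on both strands for GCGTGGGNG and GCGGGGGCG, GC-rich motifs of the kind that WT1 and the EGR factors are known to bind. The motifs differ at a fixed letter, so the same 9 letters cannot match both. Capitals mark the matches, which here read as the reverse complement. GCGTGGGNG stood in 1 of the 35 windows, the upstream window of Agrn, which holds 2 matches, and in 1.90% of all 32851 windows. GCGGGGGCG stood in 4 of the 35 windows, among them the downstream window of Agrn, and in 2.91% of all windows. The Nid1 window held neither. Nor did the 2 windows of Npnt, called higher in XY -KTS KO, or the window of Itga8, called higher in XX -KTS KO. Agrn and Nid1 are examples. Other genes called in both sexes of the -KTS KO, Lama1, Nid2, Itga4 and Itgb8 among them, are not described singly here, nor are the other windows with GCGGGGGCG. Whether matches go with the direction of change was not tested. A match is a description of the letters and not a binding site.
Agrn, upstream start, chr4:156197439-156197738, minus strand: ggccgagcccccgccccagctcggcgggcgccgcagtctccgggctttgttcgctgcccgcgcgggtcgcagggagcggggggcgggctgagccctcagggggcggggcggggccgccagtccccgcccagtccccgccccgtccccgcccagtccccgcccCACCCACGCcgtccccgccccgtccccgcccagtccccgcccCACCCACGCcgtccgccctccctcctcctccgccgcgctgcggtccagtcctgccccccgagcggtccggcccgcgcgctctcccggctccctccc
Agrn, downstream start, chr4:156186210-156186509, minus strand: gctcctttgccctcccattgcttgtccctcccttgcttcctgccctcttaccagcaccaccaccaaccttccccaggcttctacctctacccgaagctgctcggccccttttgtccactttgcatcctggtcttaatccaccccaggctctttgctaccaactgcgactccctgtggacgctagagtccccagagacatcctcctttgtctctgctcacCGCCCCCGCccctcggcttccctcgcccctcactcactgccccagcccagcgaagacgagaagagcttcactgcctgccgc
Nid1, chr13:13437352-13437651, plus strand: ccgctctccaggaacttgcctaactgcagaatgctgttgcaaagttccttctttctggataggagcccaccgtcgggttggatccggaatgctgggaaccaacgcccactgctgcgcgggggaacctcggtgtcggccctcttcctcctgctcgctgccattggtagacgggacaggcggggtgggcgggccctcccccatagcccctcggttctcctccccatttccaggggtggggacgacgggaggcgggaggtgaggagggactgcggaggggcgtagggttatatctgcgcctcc

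Of the 45 genes, 38 passed the filter on low counts in somatic cells. The other 7 (Itgb6, Itgam, Itgax, Itgad, Itgb2, Itga2 and Itgb2l, of which Itgam, Itgax, Itgad and Itgb2 belong to leukocyte integrins) reached at most 0.144 CPM in any library. The test was the quasi-likelihood test of edgeR, and a gene was called at an adjusted p (Benjamini-Hochberg, all tested genes) under 0.05. Values over all cells of a library mix cell types, and fewer cells of a type and less RNA per cell cannot be told apart in them. The map of the tested genes by library gives the pattern: the -KTS KO columns of both sexes carried the 4 lowest values of Lama1, Nid1 and Itgb8, and Lama4 and Itga4 were highest in the XY WT columns.

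**Figure D1:**
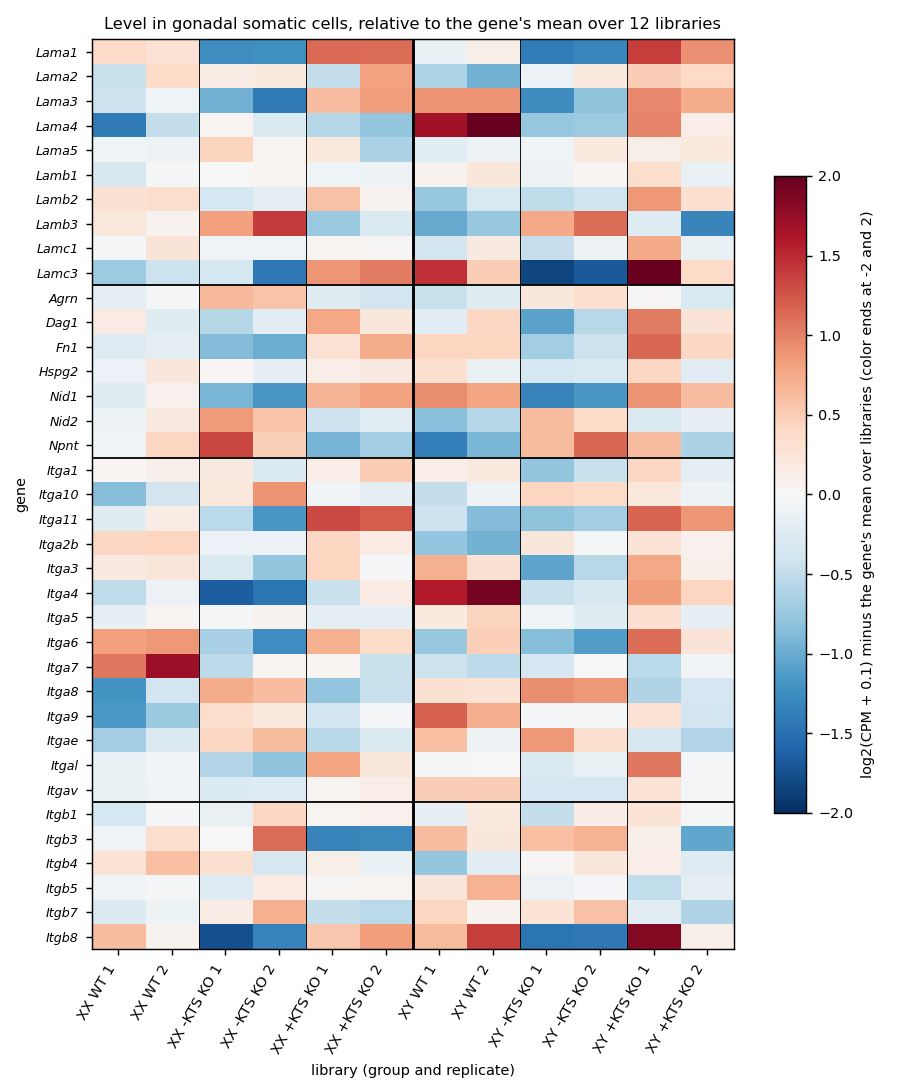
Level of the tested genes reported here (rows: laminins, other basement membrane and adhesion genes, integrin alpha, integrin beta) in the somatic cells of the 12 libraries (columns), as log2(CPM + 0.1) minus the gene's mean over libraries; red is above and blue below the mean. Lama1 was lowest in the 4 -KTS KO libraries (4.03 to 4.56 CPM) and highest in the 4 +KTS KO libraries (20.4 to 28.3 CPM).

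In XX gonads without -KTS, the laminin chain gene Lama1, the nidogen gene Nid1 and the laminin receptor gene Itga6 fell, whereas the second nidogen gene Nid2, agrin (Agrn) and the receptor genes Itga8 and Itga9 rose. Of 38 genes, 12 were called (31.6%, beside 16.2% of all 17707 genes). Of these, 5 were higher (beside 6.73% of all genes) and 7 lower (beside 9.51%). The median log2 fold change was -0.15 over the 38 genes and 0.01 over all genes. The other called genes were at lower levels: Itga4, Itga7, Itgb8 and Lama3 fell and Itga10 rose. Leaving out a library, which assumes that the lone sample of its group varies like the other groups, kept 5 of the 12 calls each time and turned no direction. Lama1, Nid1 and Itga8 kept their calls in all 4 cases. Without XX WT replicate 1, Agrn, Itga10, Itga6, Itga9, Itgb8, Lama3 and Nid2 lost theirs (adjusted p 0.0620 to 0.223). Without XX WT replicate 2, or without XX -KTS KO replicate 2, Itga10, Itga4, Itga6, Itga7, Itgb8, Lama3 and Nid2 did (0.0506 to 0.222 and 0.0502 to 0.241). Without XX -KTS KO replicate 1, Agrn, Itga4, Itga7, Itga9, Itgb8, Lama3 and Nid2 did (0.0629 to 0.172). Over all kept cells of a library, germ and other cells included, the calls of Agrn, Itga10, Itga4, Itga9, Lama3 and Nid2 were lost (adjusted p 0.0554 to 0.782), and with total UMIs in place of TMM those of Itga10, Lama3 and Nid2 were (0.0564 to 0.0649).

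In XY gonads without -KTS, 16 of 38 genes were called (42.1%, beside 23.4% of all 17707 genes). Of these, 5 were higher (beside 11.0% of all genes) and 11 lower (beside 12.4%). Those that fell were 4 laminin chains (Lama1, Lama3, Lama4 and Lamc3), Nid1, fibronectin (Fn1) and the receptor chains Itga3, Itga4, Itga9, Itgav and Itgb8. Those that rose were Nid2, Agrn, nephronectin (Npnt), Lamb3 and Itga2b. The median log2 fold change was -0.31 over the 38 genes and 0.02 over all genes. Leaving out a library kept 11 to 15 of the 16 calls, with no direction turned. Without XY WT replicate 1, Agrn, Itga3, Itga9, Lamb3 and Npnt lost theirs (adjusted p 0.0673 to 0.109), and without XY WT replicate 2 only Itga2b did (0.0584). Without XY -KTS KO replicate 1, Fn1, Itga2b, Itga3, Itga9 and Lamc3 did (0.0563 to 0.0884), and without XY -KTS KO replicate 2, Agrn, Itga9, Lamb3, Lamc3 and Npnt did (0.0512 to 0.0761). When all kept cells were summed, the calls of Agrn, Itga2b, Itga3, Itga9, Lama3, Nid2 and Npnt were lost (adjusted p 0.0658 to 0.639), and the direction of Nid2 turned.

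In XX gonads without +KTS, Lama1, Nid1 and the collagen receptor gene Itga11 rose and Itga7 fell. These 4 of 38 genes were called (10.5%, beside 4.99% of all 17707 genes, of which 2.33% higher and 2.66% lower), with a median log2 fold change of 0.11 over the 38 genes and 0.00 over all genes. Scaled to total UMIs in place of TMM, 2 genes were called, 1 higher and 1 lower, and Lama1 (adjusted p 0.0758) and Nid1 (0.0546) were lost. The median log2 fold change over all genes was -0.04 with that scaling. Summed over all kept cells, Itga11, Itga7 and Nid1 were lost (0.0650 to 0.104). Each of the 4 calls was lost without XX WT replicate 1 (adjusted p 0.106 to 0.174), XX WT replicate 2 (0.0547 to 0.279), XX +KTS KO replicate 1 (0.0728 to 0.115) or XX +KTS KO replicate 2 (0.0919 to 0.322), with no direction turned.

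In XY gonads without +KTS, Lama1, Itga11, Lamb2 and Itga2b rose and Lama4, Itga4, Itga9 and Itgb5 fell. These were 8 of 38 genes (21.1%, beside 12.4% of all 17707 genes, of which 6.06% higher and 6.34% lower), and the median log2 fold change was 0.23 over the 38 genes and 0.05 over all genes. Scaled to total UMIs, 5 genes were called, 4 higher and 1 lower, and Itga4, Itga9 and Lama4 were lost (adjusted p 0.0649 to 0.0723). The median log2 fold change over all genes was 0.14 with that scaling. With all kept cells, the calls of Itga4, Itga9, Itgb5 and Lama4 were lost (0.0739 to 0.121). Without the mesenchyme and muscle clusters, in which XY +KTS KO replicate 2 was rich, 8 genes were again called, and Itga4, with a larger log2 fold change of -1.51, missed the threshold (adjusted p = 0.051). Without XY +KTS KO replicate 2, Itga4, Itga9 and Lama4 lost their calls (adjusted p 0.0755 to 0.103), and without XY +KTS KO replicate 1, Itgb5 and Lamb2 did (0.0594 to 0.0931). Without XY WT replicate 1, Itga2b, Itga4, Itga9, Lama4 and Lamb2 did (0.0618 to 0.199), and without XY WT replicate 2, Itga2b, Itga4, Itgb5 and Lama4 did (0.0640 to 0.133). Lama1 and Itga11 kept theirs in all 4 cases.

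Between the wild types, XX gonads were lower than XY gonads in Lama4, Lama3, Nid1, Itga4, Itga8, Itga9 and Itgav and higher in Nid2, Lamb2, Itga2b and Itga7. These were 11 of 38 genes (28.9%, beside 13.1% of 17084 autosomal genes, of which 6.22% higher and 6.85% lower in XX), and the median log2 fold change was -0.18 over the 38 genes and 0.02 over all genes. Without XX WT replicate 1, Itga8, Itgav, Lama3, Lamb2 and Nid1 lost their calls (adjusted p 0.0600 to 0.215), and without XX WT replicate 2, Itga7, Itgav, Lama3, Lamb2 and Nid2 did (0.0677 to 0.164). Without XY WT replicate 1, Itga7, Itga8, Itgav, Lama3, Lamb2 and Nid2 did (0.0755 to 0.261), and without XY WT replicate 2, Itga7, Itga8 and Lama3 did (0.0544 to 0.101). Over all kept cells, the calls of Itga2b, Itga8, Itgav, Lama3, Nid1 and Nid2 were lost (adjusted p 0.0694 to 0.905), with total UMIs those of Itgav, Lama3 and Lamb2 (0.0547 to 0.0721), and with doublets kept that of Nid2 (0.272). No direction turned.

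**Figure D2:**
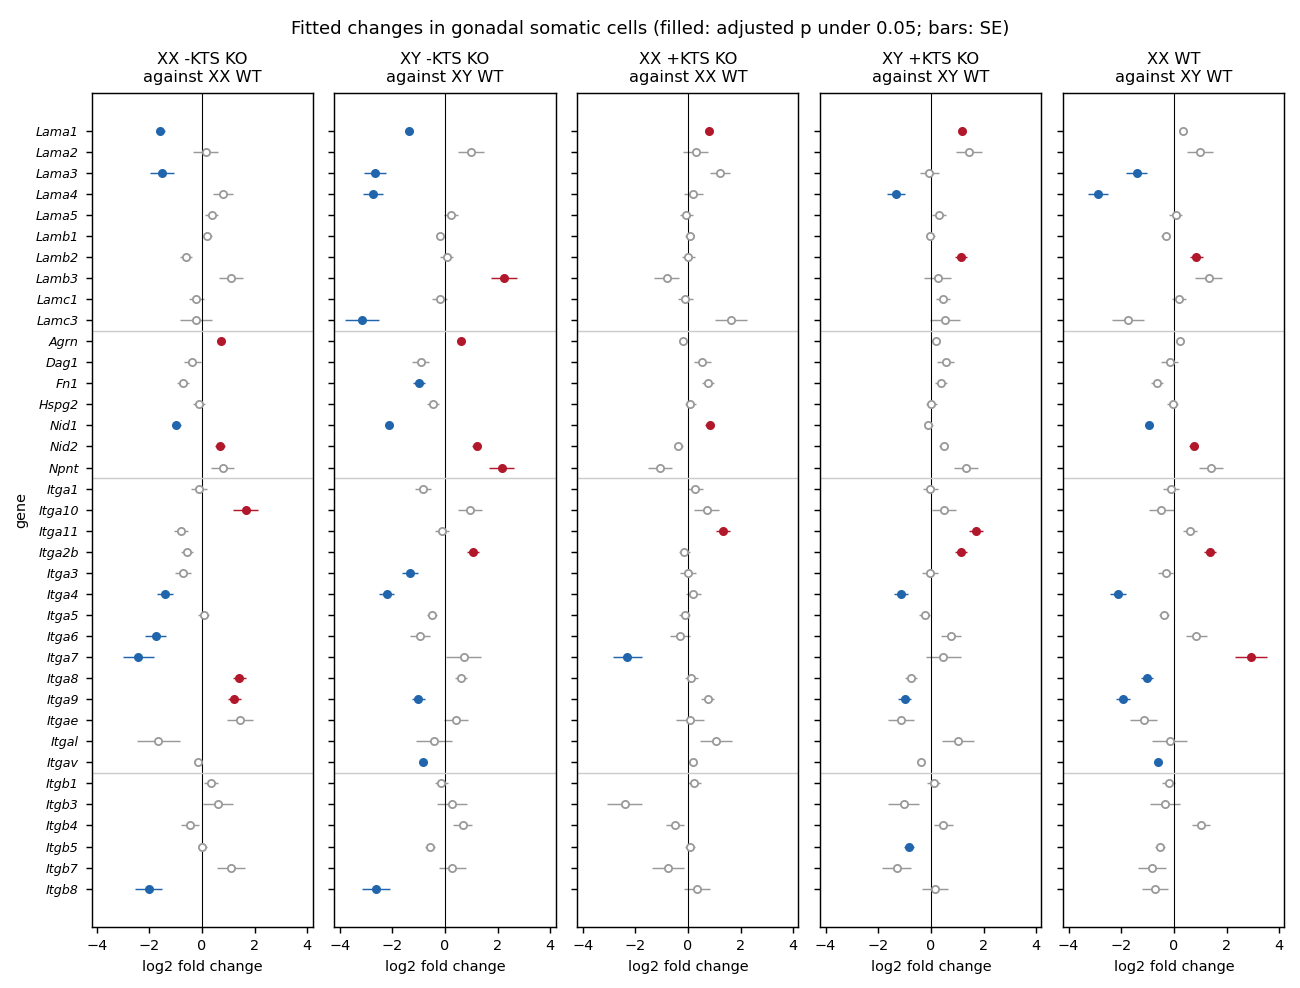
Fitted log2 fold change (horizontal axis) with its SE for the tested genes reported here (rows, in the order laminins, other basement membrane and adhesion genes, integrin alpha, integrin beta) in the 5 comparisons of somatic cells; filled red and blue points had an adjusted p under 0.05. Lama1 lies at -1.59 and -1.37 in the XX and XY -KTS KO and at 0.79 and 1.17 in the XX and XY +KTS KO.

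Lama1 encodes the alpha chain of laminin-111, the laminin of the earliest embryonic basement membranes (mm10 chr17:67697259-67822647, plus strand). It was at 14.2 and 13.2 CPM in the XX WT libraries and at 9.88 and 11.7 CPM in the XY WT libraries. Without -KTS it was at 4.53 and 4.56 CPM in XX and at 4.03 and 4.32 CPM in XY, and without +KTS at 23.8 and 23.7 CPM in XX and at 28.3 and 20.4 CPM in XY. The 3 genotypes did not overlap in either sex, with the -KTS KO lowest and the +KTS KO highest. Lama1 was 3.02-fold lower in XX -KTS KO (log2 fold change -1.59 ± 0.17 SE, adjusted p = 0.00049) and 2.58-fold lower in XY -KTS KO (-1.37 ± 0.17, adjusted p = 0.00049). It was 1.73-fold higher in XX +KTS KO (0.79 ± 0.16, adjusted p = 0.024) and 2.26-fold higher in XY +KTS KO (1.17 ± 0.16, adjusted p = 0.0026). The difference between the sexes in either mutant effect missed the threshold (-0.22 ± 0.23 for -KTS and -0.38 ± 0.23 for +KTS). Lama1 was the one gene called in all 4 mutant comparisons, a description of which genes were called and not a test.

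Lama4 encodes the alpha chain of laminins found around blood vessels. It was at 9.94 and 13.8 CPM in XY WT and at 1.08 and 2.15 CPM in XX WT. In the XY mutants it was at 1.75 and 1.79 CPM without -KTS and at 6.13 and 3.33 CPM without +KTS, and in the XX mutants at 3.17 and 2.48 CPM and at 2.01 and 1.75 CPM. The XY WT libraries thus stood above all 10 others. Lama4 was 6.69-fold lower in XY -KTS KO (log2 fold change -2.74 ± 0.38, adjusted p = 0.00092), 2.51-fold lower in XY +KTS KO (-1.33 ± 0.36, adjusted p = 0.039) and 7.29-fold lower in XX than in XY WT (-2.87 ± 0.38, adjusted p = 0.0017). The summed endothelial markers in the somatic sums were at 51.4 and 53.1 CPM in XY WT and at 46.0 and 46.8 CPM in XX WT. In the XY mutants they were at 58.1 and 50.6 CPM without -KTS and at 41.9 and 39.7 CPM without +KTS. They overlapped the XY WT in XY -KTS KO and were lower, without overlap, in XY +KTS KO and XX WT, and their part in those results was not tested.

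Lamb2, a beta chain that takes the place of Lamb1 in later basement membranes, was at 9.62 and 9.93 CPM in XX WT and at 4.55 and 6.24 CPM in XY WT. It was at 14.2 and 9.72 CPM in XY +KTS KO, 2.22-fold above XY WT (log2 fold change 1.15 ± 0.24, adjusted p = 0.015). Lama5, Lamb1 and Lamc1, the chains shared by many laminins of epithelia, were called in no somatic comparison. Lamb1 ran from 30.7 to 48.6 CPM, Lamc1 from 14.0 to 32.8 CPM and Lama5 from 3.03 to 6.45 CPM over the 12 libraries. The largest of their fitted log2 fold changes, sex differences of the mutant effects aside, was 0.45 ± 0.27, for Lamc1 in XY +KTS KO.

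Among the laminin chains at lower levels, Lama3, an alpha chain of epithelial anchoring laminins, was at 0.667 and 0.661 CPM in XY WT and at 0.0712 and 0.134 CPM in XY -KTS KO (log2 fold change -2.66 ± 0.43, adjusted p = 0.0021). Its fall in XX -KTS KO (-1.53 ± 0.46, adjusted p = 0.049) was lost in 10 of 14 alternatives. Lama3 was higher in germ than in somatic cells, and the part of germ cell RNA in its results was not tested. Lamc3, a gamma chain, was at 3.67 and 1.83 CPM in XY WT and at 0.285 and 0.329 CPM in XY -KTS KO (-3.15 ± 0.65, adjusted p = 0.0074). Lamb3 was at 0.188 and 0.246 CPM in XY WT and at 0.883 and 1.16 CPM in XY -KTS KO (2.23 ± 0.50, adjusted p = 0.010). Lama2 reached at most 1.22 CPM in any library and was not called.

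The nidogens, which link laminin to collagen IV, moved in opposite directions in the -KTS KO. Nid1 (mm10 chr13:13437551-13512269, plus strand) was at 11.2 and 13.9 CPM in XX WT, 6.94 and 5.85 CPM in XX -KTS KO and 21.2 and 23.2 CPM in XX +KTS KO. In XY it was at 25.2 and 22.9 CPM in the WT, 5.17 and 5.84 CPM without -KTS and 24.7 and 20.3 CPM without +KTS. The 4 -KTS KO libraries were the 4 lowest of the 12, and the XY +KTS KO libraries overlapped the XY WT. Nid1 was 1.96-fold lower in XX -KTS KO (log2 fold change -0.97 ± 0.16, adjusted p = 0.0042) and 4.37-fold lower in XY -KTS KO (-2.13 ± 0.17, adjusted p = 5.2e-05). It was 1.77-fold higher in XX +KTS KO (0.82 ± 0.16, adjusted p = 0.021) and 1.92-fold lower in XX than in XY WT (-0.94 ± 0.16, adjusted p = 0.0059).

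Nid2 (mm10 chr14:19751265-19811787, plus strand) was at 8.84 and 10.8 CPM in XX WT and rose to 17.3 and 14.2 CPM without -KTS. The XY libraries were at 5.26 and 6.38 CPM in the WT and at 14.6 and 12.2 CPM without -KTS. The +KTS KO libraries, at 7.08 and 8.20 CPM in XX and 7.77 and 8.52 CPM in XY, lay below every -KTS KO library. The rise was 1.61-fold in XX -KTS KO (log2 fold change 0.68 ± 0.18, adjusted p = 0.026) and 2.30-fold in XY -KTS KO (1.20 ± 0.18, adjusted p = 0.0014). Nid2 was also higher in germ than in somatic cells, and over all kept cells of a library, germ cells included, its log2 fold change was 0.11 in XX and -0.14 in XY -KTS KO. The summed germ cell markers in the somatic sums were at 31.7 and 45.4 CPM in XY WT and at 12.3 and 13.4 CPM in XY -KTS KO. They were at 34.4 and 20.1 CPM in XX WT and at 9.88 and 61.2 CPM in XX -KTS KO, and their part in the Nid2 results was not tested. The mesonephric duct markers, given above, were higher in the -KTS KO of both sexes, as Nid2 and Agrn were, and as Npnt and Lamb3 were in XY. Their part in these results was not tested.

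Agrin (Agrn), a heparan sulfate proteoglycan that binds laminin and dystroglycan, was at 12.8 and 14.6 CPM in XX WT and at 23.3 and 22.1 CPM in XX -KTS KO. In XY, Agrn was at 10.9 and 12.5 CPM in the WT and at 17.3 and 18.6 CPM without -KTS. No -KTS KO library overlapped the WT of its sex, and the +KTS KO libraries ran from 11.4 to 15 CPM. The rise was 1.66-fold in XX (log2 fold change 0.73 ± 0.15, adjusted p = 0.0093) and 1.54-fold in XY (0.62 ± 0.15, adjusted p = 0.013). Over all kept cells the log2 fold change of Agrn was 0.51 in XX (adjusted p = 0.10) and 0.40 in XY (adjusted p = 0.17), and both calls were lost. Perlecan (Hspg2), the other large proteoglycan of the group, ran from 10.7 to 18.2 CPM and was called in no comparison; its largest log2 fold change was -0.44 ± 0.22 in XY -KTS KO (adjusted p = 0.19).

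Fibronectin (Fn1), an integrin ligand of the interstitial matrix, was at 37.4 and 37.4 CPM in XY WT and at 17.2 and 20.6 CPM in XY -KTS KO, 1.98-fold lower (log2 fold change -0.99 ± 0.23, adjusted p = 0.013). In XX it was at 23.3 and 24.3 CPM in the WT and at 15.2 and 14.0 CPM without -KTS, where the log2 fold change of -0.71 ± 0.23 missed the threshold (adjusted p = 0.064). Fn1 was also higher in germ than in somatic cells, and the germ cell markers, given above, were lower in XY -KTS KO than in XY WT. Their part in the Fn1 result was not tested. Over all kept cells the log2 fold change of Fn1 in XY -KTS KO was -0.90 (adjusted p = 0.049). Nephronectin (Npnt), a basement membrane ligand of the integrin that holds the Itga8 chain, was at 0.884 and 1.26 CPM in XY WT and at 3.89 and 5.63 CPM in XY -KTS KO, 4.44-fold higher (2.15 ± 0.46, adjusted p = 0.0088). In XX it was at 2.32 and 3.38 CPM in the WT and at 6.37 and 3.49 CPM without -KTS (0.79 ± 0.44, adjusted p = 0.26). Over all kept cells the log2 fold change of Npnt in XY -KTS KO was 0.45 (adjusted p = 0.33), and Npnt too was higher in germ cells.

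**Figure D3:**
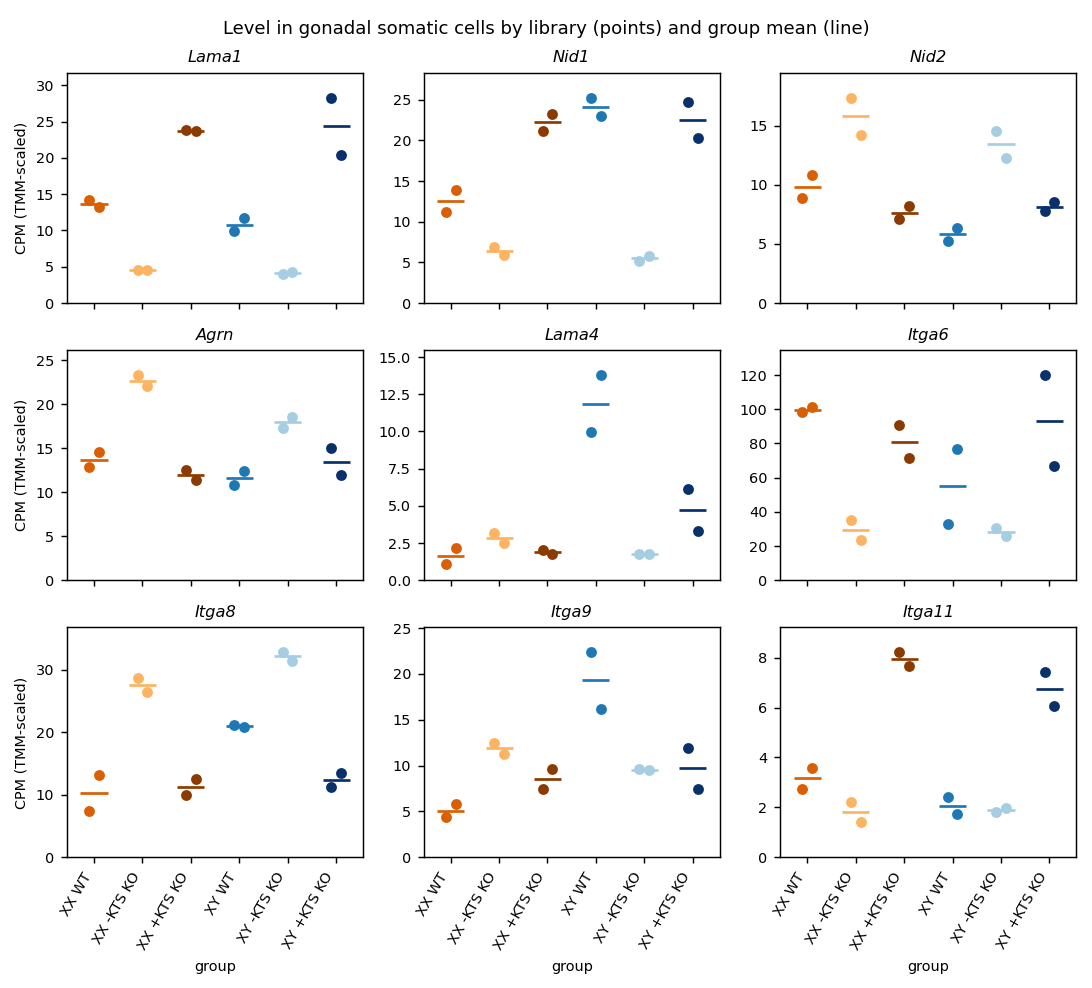
CPM in somatic cells (vertical axes, from 0) of 9 genes in the 6 groups (horizontal axes); points are the 2 libraries of a group and lines their mean. Lama1 and Nid1 lie lowest and Nid2 and Agrn highest in the -KTS KO libraries of both sexes, and Lama4 lies at 9.94 and 13.8 CPM in XY WT and at no more than 6.13 CPM elsewhere.

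Among the alpha chains of laminin receptors, Itga6 (mm10 chr2:71745616-71858416, plus strand) was at 98.5 and 101 CPM in XX WT and at 35.3 and 23.6 CPM in XX -KTS KO, 3.39-fold lower (log2 fold change -1.76 ± 0.39, adjusted p = 0.015). In XY it was at 33 and 77.0 CPM in the WT and at 30.8 and 25.7 CPM without -KTS (-0.96 ± 0.39, adjusted p = 0.10). The XY WT libraries differed more than 2-fold from each other, and both lay above the XY -KTS KO libraries. Itga7, the second laminin receptor chain of this kind, was at 0.384 and 0.666 CPM in XX WT and at no more than 0.142 CPM in any other library. Its log2 fold change was -2.42 ± 0.58 in XX -KTS KO (adjusted p = 0.021), -2.31 ± 0.56 in XX +KTS KO (adjusted p = 0.044) and 2.95 ± 0.61 in XX against XY WT (adjusted p = 0.013). The XX +KTS KO call was lost in 7 of 14 alternatives, among them DESeq2 (adjusted p = 0.0504) and all kept cells (adjusted p = 0.097). Itga3, a further laminin receptor chain, was at 7.20 and 5.41 CPM in XY WT and at 2.06 and 2.95 CPM in XY -KTS KO (-1.33 ± 0.31, adjusted p = 0.012).

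Itga8 (mm10 chr2:12106632-12301922, minus strand) encodes the receptor chain for nephronectin. It was at 7.39 and 13.2 CPM in XX WT and at 28.7 and 26.4 CPM in XX -KTS KO, 2.68-fold higher (log2 fold change 1.42 ± 0.24, adjusted p = 0.0040). In XY it was at 21.1 and 20.8 CPM in the WT and at 32.8 and 31.4 CPM without -KTS; the groups did not overlap, but the log2 fold change of 0.61 ± 0.23 missed the threshold (adjusted p = 0.086). Without the mesenchyme and muscle clusters, which the -KTS KO libraries nearly lacked and in which Itga8 was high, the rise in XX was larger, at 2.33 (adjusted p = 0.00016). The summed perivascular markers, of which 6 of 7 were detected and Higd1b was at 0, were at 16.5 and 22.2 CPM in XX WT and at 33.2 and 32.3 CPM in XX -KTS KO. They were at 33 and 39.2 CPM in XY WT and at 41.5 and 50 CPM in XY -KTS KO. They were higher, without overlap, in each -KTS KO than in the WT of its sex and in XY than in XX WT. Without +KTS they were at 19.5 and 21.5 CPM in XX and, below XY WT, at 20.3 and 26.9 CPM in XY. Their part in the results of Itga8 and of the other genes was not tested.

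Itga9, a chain of receptors for tenascin and related ligands, ran the other way in the 2 sexes. In XX it was at 4.36 and 5.78 CPM in the WT, 12.5 and 11.3 CPM without -KTS and 7.5 and 9.65 CPM without +KTS. In XY it was at 22.4 and 16.2 CPM in the WT, 9.61 and 9.47 CPM without -KTS and 11.9 and 7.47 CPM without +KTS. Both XY mutants lay below the XY WT, and both XX mutants above the XX WT. Itga9 was 2.34-fold higher in XX -KTS KO (log2 fold change 1.22 ± 0.25, adjusted p = 0.011), 2.02-fold lower in XY -KTS KO (-1.02 ± 0.25, adjusted p = 0.016), 1.99-fold lower in XY +KTS KO (-0.99 ± 0.25, adjusted p = 0.032) and 3.80-fold lower in XX than in XY WT (-1.92 ± 0.26, adjusted p = 0.0018). The rise in XX +KTS KO missed the threshold (0.76 ± 0.25, adjusted p = 0.13). Without the mesenchyme and muscle clusters, the call in XY -KTS KO was lost (-0.95, adjusted p = 0.059).

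Itga4, which pairs with Itgb1 or Itgb7 to bind fibronectin and Vcam1, was at 5.56 and 7.04 CPM in XY WT, 1.30 and 1.42 CPM in XY -KTS KO and 3.27 and 2.44 CPM in XY +KTS KO. In XX it was at 1.23 and 1.65 CPM in the WT and at 0.503 and 0.585 CPM without -KTS. It was 4.64-fold lower in XY -KTS KO (log2 fold change -2.22 ± 0.29, adjusted p = 0.00073), 2.66-fold lower in XX -KTS KO (-1.41 ± 0.30, adjusted p = 0.013) and 2.21-fold lower in XY +KTS KO (-1.14 ± 0.28, adjusted p = 0.028). Without the mesenchyme and muscle clusters, the log2 fold change of Itga4 in XX -KTS KO was -1.34 with a larger SE of 0.47, and the call was lost (adjusted p = 0.079). Itgav, a chain of receptors for ligands that hold the motif RGD, was at 21.3 and 21.4 CPM in XY WT and at 11.9 and 12 CPM in XY -KTS KO (-0.84 ± 0.13, adjusted p = 0.0016). The 4 -KTS KO libraries lay between 11.9 and 12.7 CPM in both sexes. Itga5, the fibronectin receptor chain, ran from 4.54 to 7.38 CPM and was not called.

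Itga11, a receptor chain for fibrillar collagen, rose in the +KTS KO of both sexes. It was at 2.73 and 3.59 CPM in XX WT and at 8.22 and 7.67 CPM in XX +KTS KO, 2.51-fold higher (log2 fold change 1.33 ± 0.26, adjusted p = 0.020). In XY it was at 2.41 and 1.74 CPM in the WT and at 7.44 and 6.07 CPM without +KTS, 3.26-fold higher (1.70 ± 0.26, adjusted p = 0.0042). The -KTS KO libraries ran from 1.40 to 2.21 CPM. Itga2b, best known from platelets, was at 0.812 and 0.707 CPM in XY WT and between 1.33 and 2.00 CPM in the other 10 libraries. It was higher in XY -KTS KO (1.05 ± 0.23, adjusted p = 0.0096), in XY +KTS KO (1.13 ± 0.23, adjusted p = 0.014) and in XX against XY WT (1.38 ± 0.23, adjusted p = 0.0049). Itga10, another collagen receptor chain, was at 0.0887 and 0.164 CPM in XX WT and at 0.294 and 0.532 CPM in XX -KTS KO (1.65 ± 0.46, adjusted p = 0.037). That call was lost in 7 of 14 alternatives, among them DESeq2 (adjusted p = 0.053) and doublets kept, where the log2 fold change was 1.05 (adjusted p = 0.18). Itga1, Itgae and Itgal were called in no somatic comparison.

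Among the beta chains, Itgb1, the common partner of most alpha chains named above, ran from 110 to 204 CPM over the 12 libraries and was called in no comparison. Its fitted log2 fold changes, sex differences of the mutant effects aside, lay between -0.20 ± 0.25 and 0.34 ± 0.25. Itgb8, a partner of Itgav, was at 3.78 and 2.56 CPM in XX WT and at 0.650 and 0.904 CPM in XX -KTS KO (log2 fold change -2.03 ± 0.53, adjusted p = 0.028). In XY, Itgb8 was at 3.83 and 6.55 CPM in the WT and at 0.826 and 0.842 CPM without -KTS (-2.63 ± 0.53, adjusted p = 0.0064). Both -KTS KO groups lay below the WT of their sex. Itgb5, another partner of Itgav, was at 59.9 and 82.5 CPM in XY WT and at 36.2 and 44.1 CPM in XY +KTS KO, 1.77-fold lower (-0.83 ± 0.18, adjusted p = 0.020). Itgb3, Itgb4 and Itgb7 reached at most 1.32 CPM in somatic cells and were not called. Dystroglycan (Dag1), the laminin and agrin receptor that is no integrin, ran from 32.2 to 139 CPM. It was at 58.6 and 90.8 CPM in XY WT and at 32.2 and 46.2 CPM in XY -KTS KO, and that log2 fold change of -0.93 ± 0.32 missed the threshold (adjusted p = 0.065).

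The effect of each mutation was compared between the sexes as (XX mutant - XX WT) - (XY mutant - XY WT), on the log2 scale. For -KTS, 4 of 38 genes differed (beside 3.07% of all 17707 genes). Lama4 differed by 3.54 ± 0.52 (adjusted p = 0.011), Itga9 by 2.24 ± 0.36 (adjusted p = 0.015) and Nid1 by 1.16 ± 0.23 (adjusted p = 0.030). Itga2b differed in the other direction, by -1.62 ± 0.32 (adjusted p = 0.029). Lama4 and Itga9 fell in XY and not in XX, Nid1 fell more in XY, and Itga2b rose in XY and not in XX. For +KTS, 1 of 38 genes differed (beside 3.81% of all 17707 genes), which was Itga9 (1.75 ± 0.35, adjusted p = 0.029). Lama1, in contrast, gave differences of -0.22 ± 0.23 for -KTS and -0.38 ± 0.23 for +KTS, with adjusted p of 0.69 and 0.40. Leaving out a library left 0 to 3 of the 4 calls for -KTS. All 4 were lost without XY -KTS KO replicate 1 (adjusted p 0.0551 to 0.121). Without XY -KTS KO replicate 2 (0.0539 to 0.0675), XX -KTS KO replicate 1 (0.0558 to 0.114) or XX WT replicate 1 (0.0697 to 0.119), Lama4 alone kept its call. Itga2b and Nid1 lost theirs without XX -KTS KO replicate 2 (0.0710 to 0.105), XX WT replicate 2 (0.0566 to 0.0969) or XY WT replicate 1 (0.0799 to 0.108), and Itga2b did without XY WT replicate 2 (0.0595). The +KTS call of Itga9 was lost without XX +KTS KO replicate 2 (0.0976), XX WT replicate 1 (0.109), XX WT replicate 2 (0.0580) or XY WT replicate 1 (0.106). With all kept cells, none of the 5 calls held (adjusted p 0.0715 to 0.301), and with total UMIs those of Nid1 for -KTS (0.0816) and Itga9 for +KTS (0.0598) were lost.

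The genes had unlike levels in the cell classes of the WT gonads. Classes are clusters of cells named from at least 3 raised marker genes, with a marker of the class among the cluster's leading genes. The cluster led by Acta2, Tagln and Col6a2 was set apart by those genes alone. Cluster 7, named pre-granulosa without such a leading marker, is thus in no class. With it, the clusters named pre-granulosa held 826 and 669 cells of the XX -KTS KO libraries. All clusters were built from the same cells as the levels, so the levels, each a mean of 2 libraries, are a description without a test. Lama4 was at 87.7 CPM in XX and 73.3 CPM in XY in endothelial-like cells, which the somatic sums leave out. In XY WT it was at 33.9 CPM in the Sertoli-like cluster, and in XX WT at 0.974 CPM in the pre-granulosa-like clusters. The Sertoli-like cluster held 1784 and 1214 cells of the XY WT libraries and at most 5 cells of any other library. The other groups thus nearly lacked a class in which Lama4 was high, and its part in the Lama4 result was not tested. Itga4 was at 11.7 CPM in Sertoli-like cells and at 1.65 CPM in pre-granulosa-like cells. Nid1 was at 104 and 91.6 CPM in endothelial-like cells, at 61.4 and 58.9 CPM in the cluster led by Acta2, Tagln and Col6a2, and at 11.3 CPM in Sertoli-like cells. Hspg2 was at 199.7 and 124 CPM in endothelial-like cells.

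Receptor genes were likewise unevenly spread. Itga6 was at 151 CPM in the pre-granulosa-like clusters of XX WT, which held 2198 and 2222 cells there and 4 and 1 cells in XX -KTS KO. In XX +KTS KO, where Itga6 was not called, they held 40 and 4 cells, with Itga6 at 90.9 and 71.5 CPM in the somatic sums. Clusters left without a name, which are in no class, held 3793 and 1860 cells of XX +KTS KO. The paper describes separate pre-granulosa clusters in the +KTS KO, so the 40 and 4 cells do not show that such cells were missing there. The part of the pre-granulosa-like clusters in the Itga6 result was not tested. Itga8 was at 116 and 107 CPM in the Acta2, Tagln and Col6a2 cluster of XX and XY WT and at 0.474 CPM in pre-granulosa-like cells. Fn1, a ligand, was at 88.7 and 120 CPM in that same Acta2, Tagln and Col6a2 cluster, at 2.61 CPM in Sertoli-like and at 4.13 CPM in pre-granulosa-like cells. That cluster held 158 and 195 cells of XY WT and 3 and 1 cells of XY -KTS KO, the group in which Fn1 was lower. Without the mesenchyme and muscle clusters, this one included, the log2 fold change of Fn1 in XY -KTS KO was -0.91 (adjusted p = 0.033). Dag1 was at 117 CPM in Sertoli-like and 89.8 CPM in pre-granulosa-like cells. Itga2, too low to test in somatic cells, was at 44.8 and 23.3 CPM in endothelial-like cells.

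**Figure D4:**
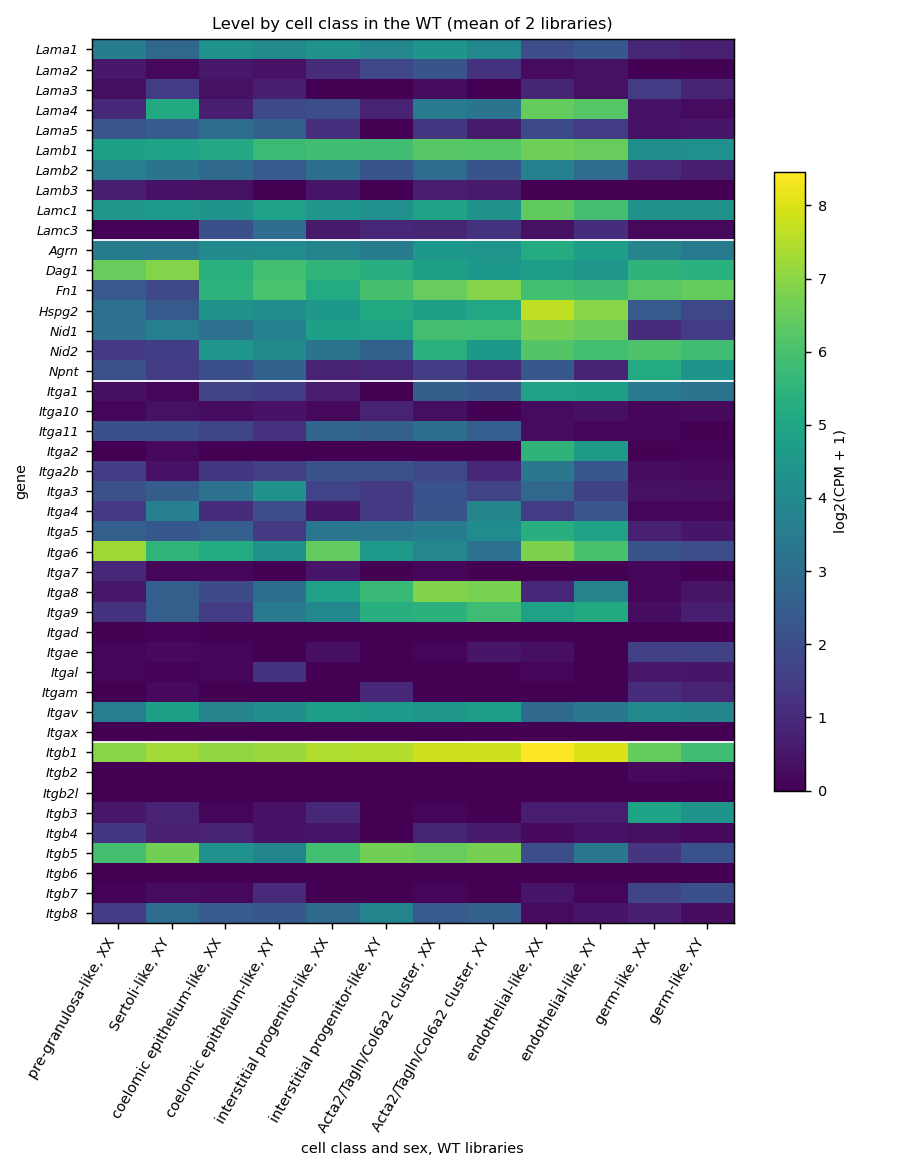
Mean level over 2 WT libraries, as log2(CPM + 1) (color), of the genes reported here (rows) in the cell classes of the XX and XY WT (columns). Lama4 is high in the endothelial-like (87.7 and 73.3 CPM) and Sertoli-like (33.9 CPM) columns, and Itga8 in the Acta2, Tagln and Col6a2 columns (116 and 107 CPM).

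The coelomic epithelium-like class was present in all 6 groups, which allowed the genes to be followed within it, though its cells fell into different clusters: mostly cluster 17 in XX WT (1493 cells) and XY WT (189 cells), cluster 5 in the -KTS KO (1797 XX and 2265 XY cells) and cluster 6 in the +KTS KO (1892 XX and 1804 XY cells). Lama1 was at 19.8 and 18.9 CPM in XX WT, 2.46 and 3.02 CPM in XX -KTS KO and 26.9 and 23.8 CPM in XX +KTS KO. In XY it was at 10.3 and 20.3 CPM in the WT, 2.79 and 2.71 CPM without -KTS and 39.5 and 21.6 CPM without +KTS. The order of the genotypes was that of the whole somatic sums in both sexes. Nid1 was at 8.19 and 7.68 CPM in XX WT and at 2.51 and 1.51 CPM in XX -KTS KO, and at 10.3 and 13.7 CPM in XY WT and 1.24 and 2.10 CPM in XY -KTS KO. Agrn was at 14.5 and 15.4 CPM in XX WT and at 24.1 and 23.5 CPM in XX -KTS KO, without overlap. In XY, Agrn was at 18.6 and 13.7 CPM in the WT and at 20.7 and 22.3 CPM without -KTS. Itga6 was at 30.5 and 40.5 CPM in XX WT and at 14.7 and 12.1 CPM in XX -KTS KO. Nid2 was at 20.9 and 20.7 CPM in XX WT and at 27.7 and 23.4 CPM in XX -KTS KO, and its XY WT libraries, at 8.25 and 22.2 CPM, lay far apart. These class values carry no test.

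Germ cells gave another picture. Of the 45 genes, 25 passed the filter on low counts there, and none of the 25 was called in any of the 5 comparisons by edgeR. At an unadjusted p under 0.05 there were 3 of the 25 in XX -KTS KO (beside 10.9% of all genes), 3 in XY -KTS KO (beside 6.02%), 4 in XX +KTS KO (beside 8.2%), 2 in XY +KTS KO (beside 8.17%) and 6 between the WT sexes (beside 10.1%). Few genes of any kind were called in germ cells at an adjusted p under 0.05: 0.0799% in XX -KTS KO, 0.0% in XY -KTS KO, 0.0799% in XX +KTS KO, 0.0% in XY +KTS KO and 0.469% between the WT sexes. DESeq2 called 1 of the genes in XX +KTS KO, 1 between the WT sexes and 0 in the other 3 comparisons. Npnt was at 35.6 and 33.3 CPM in XX WT and at 14.1 and 18.4 CPM in XX +KTS KO germ cells, without overlap (log2 fold change -1.09 ± 0.20, adjusted p = 0.13). Its XY WT libraries were at 19.7 and 19.5 CPM, also below XX WT. Itga1, a collagen receptor chain, was at 6.22 and 13.1 CPM in XX WT and at 3.15 and 3.62 CPM in XX +KTS KO germ cells.

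Each germ cell sum was set beside the somatic sum of the same library, as CPM of that sum without TMM and with no test. Of the 45 genes, 9 were higher in germ cells in all 12 libraries (beside 17.3% of 26610 genes) and 22 were lower in all 12 (beside 28.2%). The 26610 genes are all those with at least 1 UMI in either sum, very low counts included. The filter on low counts in somatic cells passed 38 of the 45 genes and 17707 of all genes, so these shares are not matched for level. Those higher in germ cells were Itgb3, Itgb7, Itgae, Itgam, Itga1, Nid2, Npnt, Fn1 and Lama3. Itgb3, known best as a chain of the vitronectin receptor, had a median of 21.0 CPM in germ cells (15.6 to 32.9) and 0.388 CPM in somatic cells (0.0624 to 0.788). Nid2 had a median of 48.9 CPM in germ cells (36.3 to 75.9) and 8.69 CPM in somatic cells (4.88 to 16.9). Npnt had a median of 21.5 CPM (14.0 to 36.0) beside 2.89 CPM (0.820 to 6.21), and Fn1 one of 64.0 CPM (49.5 to 109) beside 29.1 CPM (13.8 to 67.4). The genes on the somatic side included Itga6, with medians of 3.10 CPM in germ and 69.2 CPM in somatic cells, Lama1 (0.623 and 12.8 CPM), Itga8 (0.406 and 16.7 CPM), Itga9 (0.294 and 9.74 CPM) and Nid1 (1.49 and 17.2 CPM). The nidogens, Nid1 and Nid2, thus stood on opposite sides of this comparison.

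**Figure D5:**
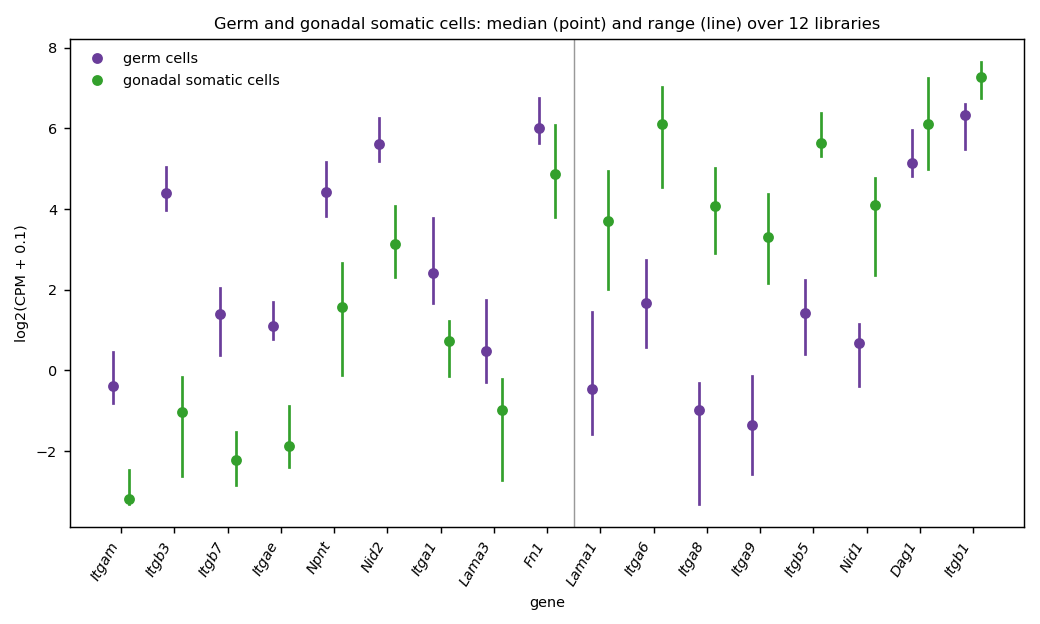
Median (points) and range over the 12 libraries (lines), as log2(CPM + 0.1), of the 9 genes higher in germ cells in every library (left of the grey line) and of 8 that were lower in every library (right), in germ cells (purple) and gonadal somatic cells (green). Itgb3 lies at a median of 21.0 CPM in germ and 0.388 CPM in somatic cells, and Itga8 at 0.406 and 16.7 CPM.

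Genes that act with these proteins were counted from 4 lists. Of 31 other basement membrane genes, 14 of 30 tested were called in XX -KTS KO (7 higher and 7 lower, beside 16.2% of all genes) and 16 in XY -KTS KO (5 higher and 11 lower, beside 23.4%). In the +KTS KO, 3 were called in XX (all higher, beside 4.99%) and 10 in XY (6 higher and 4 lower, beside 12.4%). Ecm1, a matrix protein that binds perlecan, rose from a mean of 7.89 CPM to 126 CPM in XX -KTS KO (log2 fold change 3.99 ± 0.81) and from 5.48 CPM to 120 CPM in XY -KTS KO (4.45 ± 0.84). Fras1, which anchors embryonic epithelia to their basement membrane, rose from 6.07 to 30.1 CPM in XX (2.31 ± 0.30) and from 5.17 to 28.9 CPM in XY (2.48 ± 0.31). Col18a1, a collagen of basement membranes, fell in XY -KTS KO from 196 to 11.8 CPM (-4.05 ± 0.38). The collagen IV genes Col4a1 and Col4a2 rose in XX +KTS KO, from 56.1 to 128 CPM (1.19 ± 0.27) and from 29.4 to 69.3 CPM (1.24 ± 0.24). Both of these calls were lost without any 1 of the 4 libraries compared, XX WT replicate 1 or 2 or XX +KTS KO replicate 1 or 2 (adjusted p up to 0.240 and 0.157 over all alternatives), and that of Ecm1 in XX -KTS KO without XX WT replicate 1 or 2 (up to 0.0859). Of 31 tested integrin adaptors, 5 were called in XX (1 higher and 4 lower, near the 16.2% of all genes) and 13 in XY (4 higher and 9 lower, beside 23.4%) without -KTS. Without +KTS, 3 were called in XX (1 higher and 2 lower, beside 4.99%) and 7 in XY (4 higher and 3 lower, beside 12.4%). Parvb, a parvin that links integrins to actin, fell in XX -KTS KO from 54.4 to 24.5 CPM (-1.15 ± 0.19) and rose in XY +KTS KO from 21.0 to 44.8 CPM (1.09 ± 0.19). Of 23 tested other integrin ligands, 7 were called in XX (6 higher and 1 lower, beside 16.2%) and 10 in XY (7 higher and 3 lower, beside 23.4%) without -KTS, and 3 in XX (1 higher and 2 lower, beside 4.99%) and 6 in XY (1 higher and 5 lower, beside 12.4%) without +KTS. Spp1, osteopontin, fell in XY +KTS KO from 376 to 5.73 CPM (-6.04 ± 0.34). Spp1 was also lower in XX WT, at 21.0 CPM, than in XY WT (-4.17 ± 0.31). Of 25 tested genes of the dystroglycan complex, 6 were called in XX (2 higher and 4 lower, beside 16.2%) and 9 in XY (4 higher and 5 lower, beside 23.4%) without -KTS, and 4 in XX (all lower, beside 4.99%) and 4 in XY (1 higher and 3 lower, beside 12.4%) without +KTS.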

How the data were processed

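Droplet 3' libraries of dissociated gonads were processed by the authors with Cell Ranger 6.0 on mm10, and the deposited values are whole-number UMI counts per gene and cell. The GEO labels name the v2 and the methods the v3 kit. From these counts, cells were filtered, likely doublets were removed with Scrublet (the top 0.8% per 1000 barcodes of each library), and cells were clustered with Seurat 5.3.0 and sctransform 0.4.2 (R 4.3.3; Python 3.11.15, scanpy 1.11.5). Counts were summed per library over gonadal somatic or germ cells and tested with edgeR 4.0.16 (one quasi-likelihood fit of the 6 groups, TMM, filterByExpr, Benjamini-Hochberg adjustment over all genes, threshold 0.05). The comparison of the WT sexes used autosomal genes. The SE of a log2 fold change was its size over the root of its F value. In simulated counts with 200 changed genes, the test recovered 72% of 4-fold and 40% of 2-fold changes in somatic cells. In germ cells it recovered 87% and 42%. The changes were put into XX -KTS KO alone, so recovery in the other comparisons was not simulated. A gene that was not called may thus still have changed. The study's methods call the replicates of a genotype independent. P-values set a difference between groups against a spread between libraries that was estimated over all 6 groups. Where embryos were pooled, that is not the spread between single embryos.

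The rule for the gene set uses symbols alone, but it and the 4 lists were chosen with earlier results of these data known. Called genes were named, with Lama5, Lamb1, Lamc1, Hspg2, Dag1, Itgb1, Fn1 and others given whether called or not. Genes under 5 CPM were named after their values were seen. Over the 4 lists together, up to 3 called genes in each direction were eligible per comparison, ranked by change, at 20 CPM or more in the higher group. Not all of these were described above, among them Smoc2, with the largest such rise in XX -KTS KO (log2 fold change 4.05 ± 0.31). Alternatives were DESeq2 1.42.0, other scalings, no filter, other cell sets, a replicate block and leaving out each library. A gene of the set is counted but not reported by name here.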

Additional observations from a re-analysis of the deposited data

Results flagged for a closer look

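In 5 cases the effect of a mutation differed between XX and XY gonads by the test of the difference itself, taken as (XX mutant - XX WT) - (XY mutant - XY WT) on the log2 scale (quasi-likelihood test of edgeR, Benjamini-Hochberg adjusted). These were 4 of 38 genes for -KTS (10.5%, beside 3.07% of all 17707 genes) and 1 of 38 for +KTS (2.63%, below the 3.81% of all genes). For the loss of -KTS, the difference was 3.54 for Lama4, 2.24 for Itga9, 1.16 for Nid1 and -1.62 for Itga2b. For the loss of +KTS, it was 1.75 for Itga9. Over all kept cells of a library, germ and other cells included, none of the 5 was called. All 5 kept their direction in each of 18 alternatives. The adjusted p stayed under 0.05 in 16 of these for Lama4, in 13 for Itga9 without -KTS, in 12 for Itga9 without +KTS, and in 9 each for Nid1 and Itga2b.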

How the results depend on the processing

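Over the genes called in somatic cells, 804 recomputed values gave 628 with the same direction and side of the threshold, 175 with the same direction that missed it, and 1 that turned: Nid2 in XY -KTS KO over all kept cells, germ cells included, at a log2 fold change of -0.14. Over all kept cells, 7 genes were called in XX -KTS KO, 10 in XY -KTS KO, 2 in XX +KTS KO, 5 between the WT sexes, and 0 for the sex difference of either the -KTS or the +KTS effect. With no filter on low counts, 8 genes were called in XX +KTS KO and 6 for the sex difference of the +KTS effect. Scaled to total UMIs, 2 were called in XX +KTS KO, 5 in XY +KTS KO and 0 for the sex difference of the +KTS effect. That last count was 9 with DESeq2 (6 higher and 3 lower), 2 with doublets kept and 4 without the mesenchyme and muscle clusters. In germ cells, where edgeR called 0, DESeq2 called 1 in XX +KTS KO and 1 between the WT sexes, and the fit without a filter called 2 in XX -KTS KO, 2 in XX +KTS KO, 1 in XY +KTS KO and 1 between the WT sexes. Leaving out 1 library gave 5 to 5 calls in XX -KTS KO, 11 to 15 in XY -KTS KO, 0 to 0 in XX +KTS KO, 3 to 9 in XY +KTS KO, 5 to 9 between the WT sexes, 0 to 3 and 0 to 4 for the sex difference of the -KTS and the +KTS effect, and 0 to 0 in each germ cell comparison. The cause of these changes was not tested, and the share of all genes called under each alternative is not given here. The deviations of libraries that share a replicate number correlated from -0.28 to 0.32 in somatic and from -0.34 to 0.42 in germ cells. Among XX WT, XY WT and XY -KTS KO the correlations were positive in each pair (0.11, 0.32 and 0.32 in somatic and 0.095, 0.16 and 0.42 in germ cells), but over all 6 groups they were of both signs, so the numbers were not taken to pair the libraries. With a replicate block, 11 genes were called in XX -KTS KO, 17 in XY -KTS KO, 3 in XX +KTS KO, 7 in XY +KTS KO, 9 between the WT sexes, 4 for the sex difference of the -KTS effect and 1 for that of the +KTS effect. The calls lost under the block were Lama3 in XX -KTS KO (adjusted p 0.0697), Itga7 in XX +KTS KO (0.0591), Lama4 in XY +KTS KO (0.0572), and Lama3 (0.0568) and Lamb2 (0.0582) between the WT sexes. Without the shallow clusters, 12, 16, 4, 8 and 11 genes were called in XX -KTS KO, XY -KTS KO, XX +KTS KO, XY +KTS KO and between the WT sexes, the same numbers as with them. The alternatives without the mesenchyme and muscle clusters, and without shallow clusters, were chosen after seeing the data.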
